A study of Mus musculus with 16 samples.

Results

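The comparison described here set the hearts of mice given 3 days of social stress and 1 day of rest (the T3R1 group, 4 hearts) against those of mice given 2 days of stress and 1 day of rest (the T2R1 group, 4 hearts). The members were the samples whose titles name these exposures, 8 of the 16 samples in the series, and every non-control probe of their arrays was used. All mice were of the strain C57BL/6, and RNA was taken from individual hearts, 1 array per heart. In the model, named in the title as a simulation of posttraumatic stress disorder, a mouse is held in a mesh box inside the cage of an aggressor and is exposed to its attacks. The remaining 8 samples were 4 hearts after 1 day of stress and 1 day of rest (T1R1) and 4 controls, which were held in the same boxes in a cage with no aggressor and are labelled with the 2-day exposure and 1 day of rest. The general treatment text of the labels names longer exposures than the group titles do, and the groups are given here by their titles. The labels do not state the age or sex of the mice. The question addressed was which pathways and cell types of the heart differed between the second and the third day of exposure.

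The adult heart is built mainly of cardiomyocytes, which draw most of their energy from fatty acid oxidation and the respiratory chain, and which rarely divide. Between them lie fibroblasts, which lay down collagen, endothelial cells, smooth muscle and pericytes, and resident macrophages. After injury or overload fibroblasts can become activated, divide and deposit matrix under transforming growth factor beta, while interferons, glucocorticoids and the circadian clock each act on many genes in most heart cells. An array of a whole heart measures the sum over these cells, so that fewer cells of a type and less RNA per cell cannot be told apart.

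Each level below is the log2 processed signal of a probe relative to the 75th percentile of its array, and each difference is a log2 difference of T3R1 minus T2R1 with its standard error from a linear model (limma) over all 16 arrays. Adjusted p-values are limma's, two-sided, after the Benjamini-Hochberg method over all tested features, and a feature passed at an adjusted p under 0.05. Of 55681 probes, 31390 rose well above background on every array of some group, and these gave 22632 features (16422 named genes, 3046 long noncoding RNA regions and 3164 unnamed transcripts). The share of probes well above background lay between 55.0% and 66.7% on the T2R1 arrays and between 53.8% and 67.1% on the T3R1 arrays. Pearson correlations between arrays, across features, were 0.989 to 0.993 within T2R1, 0.988 to 0.991 within T3R1 and 0.962 to 0.986 between the groups. The markers that define heart muscle were present: all 15 ventricular cardiomyocyte markers were measured on all 8 arrays, and the levels of Myl2, the regulatory light chain of ventricular myosin, lay between 9.54 and 10.18.

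The groups differed in slide as well as in exposure. The T3R1 and control arrays were on slide 1 and the T2R1 and T1R1 arrays on slide 2, each slide scanned on its own, so that exposure and slide cannot be told apart in the comparison of T3R1 with T2R1. The contrasts that stay within a slide are T3R1 against control and T2R1 against T1R1, and the difference between these contrasts holds each slide once with either sign. They share their T3R1 or T2R1 samples with the main comparison and are given beside it as values of the same genes. Within the control group, the array labelled control replicate 1 stood apart: it correlated at 0.968 to 0.971 with the other 3 controls and at 0.986 to 0.991 with the T3R1 arrays. Counts of features in contrasts that use the controls are therefore given with and without it. List values in those contrasts are mostly given without it, and against control for most described lists with it as well. Differences of single genes from control, and their slide-cancelling differences, are given once and include it. Its presence also bears on the main comparison, since all groups share 1 estimate of the spread.

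Between 2 and 3 days of stress 6107 of 22632 features passed the threshold (27.0%), of which 1490 were higher in T3R1 (6.58%) and 4617 were lower (20.4%). With p-values left unadjusted, 8932 features had one under 0.05. The 4 arrays of one group did not overlap those of the other for 8600 features (38.0%), with T3R1 above for 2800 (12.4%) and below for 5800 (25.6%). Without control replicate 1 the count rose to 8305, and from the 8 arrays alone 8360 features passed, 2554 higher (11.3%) and 5806 lower (25.7%). Within slide 1, 157 features separated T3R1 from control (0.694%), between 3 without control replicate 2 and 257 without T1R1 replicate 2, and 6667 without control replicate 1 (29.5%), of which 2314 were higher (10.2%) and 4353 lower (19.2%). For T2R1 against T1R1 none passed in limma with all arrays or without control replicate 1, with 1773 and 2773 features at an unadjusted p under 0.05 and 0 calls under every single array left out. The contrast that cancels the slides, T3R1 minus control minus the difference of T2R1 and T1R1, had 0 features past the threshold in limma with all arrays (3001 at an unadjusted p under 0.05) and 4238 without control replicate 1 (18.7%), 1362 higher (6.02%) and 2876 lower (12.7%).

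The balance of higher and lower calls depended on the scaling. The median difference over all features was -0.09, and 24.4% of the calls were higher. With quantile scaling 37.4% of the calls were higher, in the values the authors deposited 41.3%, and under scaling by the median of each array 71.5%, a setting that moves the median of all features up by 0.36. Directions of small differences near these values hold only relative to the chosen scaling. Median scaling also raised the number of higher members, to 28 in the collagen and matrix list, 16 in DNA replication, 19 in cholesterol synthesis and 12 in the macrophage list, against 13, 2, 7 and 7 in the lists as described below.

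Genes of cell division were higher after 3 days of stress than after 2. The gene lists here and below were chosen with earlier results of these data known, so the shares of all features set beside them describe the lists and do not test them. Of 20 tested members of the mitosis and cell cycle list, 12 rose (60%, against 6.58% of all features) and none fell. All 20 had their 4 T3R1 arrays above their 4 T2R1 arrays, against 12.4% of all features. The median difference over the list was 2.00, against -0.09 over all features, and the members ranged from 0.81 to 2.57. Plk1, the kinase that drives entry into and progress through mitosis, had levels of -2.11, -0.21, -1.05 and -0.87 on the T2R1 arrays and 1.63, 1.35, 1.89 and 1.08 on the T3R1 arrays. The groups did not overlap, and T2R1 replicate 1 was the lowest. The difference was 2.54 ± 0.80 (SE, n = 4 and 4, adjusted p = 0.0291), a 5.84-fold rise, measured by a probe at chr7:129313220-129313279 (mm9). Mki67, the nuclear antigen of cycling cells, was at -0.44, 0.99, 0.45 and 0.73 in T2R1 and at 2.61, 2.38, 2.62 and 2.16 in T3R1. It rose by 2.01 ± 0.71 (adjusted p = 0.0486), close to the threshold. Cdc20, the activator of the anaphase-promoting complex, rose by 1.90 ± 0.52 (adjusted p = 0.0153), and Ube2c, the ubiquitin-conjugating enzyme of that complex, by 1.45 ± 0.44 (adjusted p = 0.0263). The mitotic kinase Aurka rose by 1.91 ± 0.54 and the spindle protein Nusap1 by 1.81 ± 0.53. Among the genes with the highest differences anywhere on the array stood Ccna2, the cyclin of S phase and G2 (2.06 ± 0.67), Tpx2, a spindle assembly factor (2.10 ± 0.74), Anln, the actin-binding protein of the cleavage furrow (2.17 ± 0.64), and Pimreg, a mitotic regulator (2.43 ± 0.78).

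How many mitosis members passed rested on single arrays, while their direction did not. With any single T2R1 or T3R1 array left out, 2 to 9 members rose, with 2 for T2R1 replicate 1, T3R1 replicate 1 or T3R1 replicate 2, 3 for T2R1 replicates 3 or 4 or T3R1 replicate 3, and 6 for T3R1 replicate 4. Without control replicate 1, and from the 8 arrays alone, all 20 rose. Of the 16 members well above background on all 8 arrays 10 rose and none fell. With no filter on dim probes 5 of 21 members rose and 1 fell. On the array labelled control replicate 1 Plk1 was at 1.64 and Mki67 at 2.64, within the T3R1 range, while the other 3 controls lay between -2.92 and -2.27 for Plk1 and between -1.45 and -0.79 for Mki67. Within slide 1 the list's median difference of T3R1 minus control was 2.64 with all controls, when 1 member rose. It was 3.58 without control replicate 1, when all 20 members rose. The median of T2R1 minus T1R1 within slide 2 was 1.18. The slide-cancelling contrast had a median of 1.30 with all arrays, when no member passed. Its median without control replicate 1 was 2.28 with 20 of 20 members higher.

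Several genes of division were well above background on all 4 T3R1 arrays and on no T2R1 array, so that only a lower limit of their change can be given. Such a limit sets the T3R1 mean against the larger of the T2R1 signal and the lowest signal called above background on each array. The genes named for the largest such limits, here and below, were chosen for this pattern, so their direction follows from the choice. Kif18b, a kinesin that acts on spindle microtubules, was at least 4.08-fold higher in T3R1 (adjusted p = 0.00686). Fam83d, a spindle protein, was at least 3.12-fold higher, and Parpbp, a regulator of recombination at replication forks, at least 3.31-fold higher. The limit of Parpbp was raised by T3R1 replicate 3 at -1.49, since the other T3R1 arrays lay between -3.48 and -3.34. The DNA replication list moved less: of 24 members, Tk1 (1.43 ± 0.43) and Rrm1 (0.74 ± 0.25), both in nucleotide supply, rose, against 6.58% of all features. Cdc45, a part of the replicative helicase, fell by 0.57. Its median was 0.61 and 16 of 24 members had all T3R1 arrays above the T2R1 arrays. The number of its members that rose was 16 without control replicate 1, and 0 to 2 with single T2R1 or T3R1 arrays left out (0 without T2R1 replicate 1 or T3R1 replicate 1 or 3, and 1 without T2R1 replicate 3 or 4, T3R1 replicate 2 or, outside the groups compared, T1R1 replicate 3).

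Promoter sequences of mitosis members are shown because many of these members moved together. Windows of 250 bases upstream of the start site came from RefSeq (GRCm38.p6), and 16 of the 20 members had one. On both strands, the element of cell cycle genes TTTGAA (reverse TTCAAA) and the CCAAT box (reverse ATTGG) were searched, with every match counted. A gene was counted where any of its windows held a match. The first was found for 8 of the 16 members, against 13.5% of 12407 tested named genes with a window, and the second for 14 of 16 (87.5%), against 39.5%. The windows printed below belong to named members that rose. They run 5′ to 3′ on the strand of the gene, and capitals mark the matches.
Cdc20, chr4:118437344-118437593, minus strand: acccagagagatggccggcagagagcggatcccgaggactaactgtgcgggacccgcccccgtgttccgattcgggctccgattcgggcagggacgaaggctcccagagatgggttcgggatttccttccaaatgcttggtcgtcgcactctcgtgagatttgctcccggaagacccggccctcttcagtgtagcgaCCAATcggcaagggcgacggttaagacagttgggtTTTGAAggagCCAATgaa
Ube2c, chr2:164769679-164769928, plus strand: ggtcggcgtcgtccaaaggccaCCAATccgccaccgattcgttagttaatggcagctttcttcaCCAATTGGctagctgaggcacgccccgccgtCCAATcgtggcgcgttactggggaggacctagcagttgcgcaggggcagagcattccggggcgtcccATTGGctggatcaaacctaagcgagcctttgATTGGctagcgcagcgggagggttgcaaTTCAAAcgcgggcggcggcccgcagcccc
Plk1, chr7:122159185-122159434, plus strand: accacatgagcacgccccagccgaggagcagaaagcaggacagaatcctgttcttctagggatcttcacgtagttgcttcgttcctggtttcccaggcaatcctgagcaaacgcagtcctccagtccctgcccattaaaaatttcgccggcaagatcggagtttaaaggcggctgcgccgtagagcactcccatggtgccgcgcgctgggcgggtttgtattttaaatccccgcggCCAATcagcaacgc
Cdc20 held both elements near its start, Ube2c held 6 CCAAT boxes and 1 match of the first element, and Plk1 held 1 CCAAT box. The windows of Nusap1, which rose, and of Birc5, which did not pass, held neither. A match describes the letters of the window and shows no binding.

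**Figure D1:**
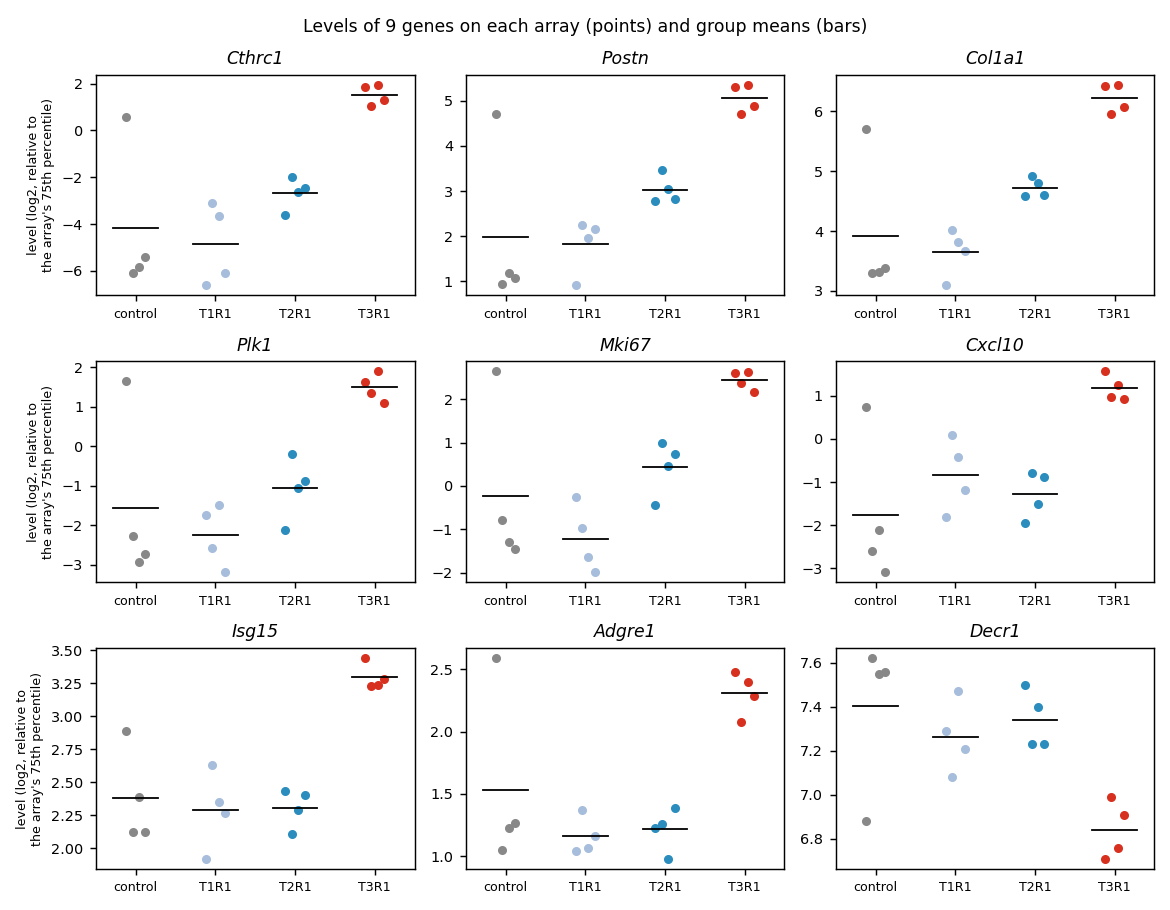
Levels of 9 genes (log2, relative to the array's 75th percentile) on each array, shown as points, with group means as bars, for control, T1R1, T2R1 and T3R1 (4 arrays each). The T3R1 points lie above all T2R1 points for Cthrc1, Postn, Col1a1, Plk1, Mki67, Cxcl10, Isg15 and Adgre1 and below them for Decr1, and 1 control point, control replicate 1, lies apart from the other 3 in most panels.

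Genes of the extracellular matrix were higher as well. Of 31 members of the collagen and matrix list, 13 rose (41.9%, against 6.58% of all features) and none fell. The median difference was 0.92, and 24 of the 31 had all T3R1 arrays above all T2R1 arrays, against 12.4% of all features. Cthrc1, a secreted protein that activated fibroblasts make, showed the highest difference among the named genes measured on all 8 arrays. Its levels were -3.62, -1.97, -2.64 and -2.44 in T2R1 and 1.84, 1.04, 1.96 and 1.28 in T3R1. No T3R1 array came near a T2R1 array, and the difference was 4.2 ± 1.21 (adjusted p = 0.0194), an 18.4-fold rise, from a probe at chr15:38918358-38918417 (mm9). Postn, the matricellular protein periostin of activated fibroblasts, was at 2.77, 3.46, 3.04 and 2.83 in T2R1 and at 5.30, 4.70, 5.36 and 4.88 in T3R1, a rise of 2.03 ± 0.64 (adjusted p = 0.0304). Col1a1, the main chain of type I collagen, was at 4.58, 4.92, 4.80 and 4.61 in T2R1 and at 6.42, 5.95, 6.45 and 6.08 in T3R1, a rise of 1.5 ± 0.42 (adjusted p = 0.0172). The T2R1 arrays were close together for both genes and the T3R1 arrays all lay higher. Col1a2, the partner chain, rose by 1.47 ± 0.29 (adjusted p = 0.00239). Col3a1, type III collagen, lay higher on all 4 T3R1 arrays but missed the threshold (1.37 ± 0.50, adjusted p = 0.0575).

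Among the enzymes and small proteins that order collagen, some rose and others did not pass. Lox, the enzyme that cross-links collagen and elastin, was at -2.75, -1.19, -2.60 and -1.72 in T2R1 and at 1.08, 0.56, 1.00 and 0.08 in T3R1, a rise of 2.74 ± 0.83 (adjusted p = 0.0255). A second probe of Lox passed in the same direction. Ltbp2, a protein of microfibrils from the family that binds latent transforming growth factor beta, rose by 2.18 ± 0.58 (adjusted p = 0.0126). Col5a2, a regulator of fibril width, rose by 1.54 ± 0.37, Col14a1 by 1.15 ± 0.26, Col15a1 of the basement membrane zone by 1.08 ± 0.24, and Bgn, the proteoglycan biglycan, by 0.70 ± 0.14. The related proteoglycans Dcn, Lum and Fmod differed by 0.07, 0.36 and 0.14 and the cross-linking enzyme Loxl2 by 1.43 (adjusted p = 0.0536). None of these passed, and they are named after their values were seen. With single T2R1 or T3R1 arrays left out, 8 to 15 members of the matrix list rose; the count was 8 without T2R1 replicate 1 or T3R1 replicate 1, and 23 without control replicate 1. Within slide 1 the median difference of T3R1 minus control was 1.26 with all controls, when 14 members rose, and 1.58 without control replicate 1, when 27 rose. The slide-cancelling contrast without that array had 24 members higher and a median of 1.25. On control replicate 1 itself Cthrc1 was at 0.57 and Postn at 4.71, while the other 3 controls reached at most -5.41 and 1.18.

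Fibroblast markers rose with the matrix, and the lists overlap, since Col1a1, Col1a2, Col3a1, Postn, Dcn and Lum stand in both. Of 20 fibroblast markers, 8 rose (40%, against 6.58% of all features) and none fell (median 0.42). T3R1 arrays lay wholly above for 13, against 12.4% of all features. The markers that are not shared with the matrix list moved less. Tcf21, a transcription factor of the fibroblast lineage, rose by 0.74 ± 0.13 (adjusted p = 0.00116), Fbln2, a matrix glycoprotein, by 0.98 ± 0.20, Mfap4, a microfibril protein, by 1.12 ± 0.22, and Pdgfra, the receptor that marks cardiac fibroblasts, by 0.43 ± 0.11. For Mfap4 the slide-cancelling difference was 0.06, near 0, and for Pdgfra T3R1 exceeded control by 0.10, so that their difference from T2R1 was not matched by one of like size in those contrasts. Of 21 genes of transforming growth factor beta and bone morphogenetic protein signalling, 5 rose (23.8%, against 6.58% of all features) and none fell (median 0.36). They were the receptors Tgfbr1 (0.58 ± 0.17) and Tgfbr2 (0.38 ± 0.13), the signal transducer Smad3 (0.32 ± 0.10, with -0.24 against control), Ltbp2 (given above) and Id2, an inhibitor of helix-loop-helix factors (0.56 ± 0.13, with a T3R1 minus control difference of -0.09). That count was 2 without T2R1 replicate 1 or replicate 3, and 3 with any single T3R1 array left out.

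Smooth muscle markers gave a divided picture. Of 14 tested members of the pericyte and smooth muscle list, 3 rose and 1 fell, against 6.58% and 20.4% of all features. Acta2, smooth muscle actin, which activated fibroblasts also make, rose by 0.80 ± 0.14 (adjusted p = 0.00123), Tagln by 0.66 ± 0.19 and Cnn1, calponin, by 1.35 ± 0.40, while Vtn, vitronectin, a marker of pericytes in the heart, fell by 0.56. Acta2 was at 4.90, 5.18, 4.89 and 5.07 in T2R1 and at 5.69, 6.04, 5.60 and 5.89 in T3R1. The groups did not overlap, but the slide-cancelling difference of Acta2 was -0.13.

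Signalling genes of the Wnt pathway, which acts between fibroblasts and neighbouring cells, were mostly higher among those that passed. Of 18 members 5 rose and 1 fell, against 6.58% and 20.4% of all features. The median was 0.37, 0.17 with normexp background correction, and -0.00 over 25 members with no filter on dim probes. Sfrp2, a secreted Wnt modulator made by fibroblasts, was at -0.68, -0.72, -0.63 and -0.70 in T2R1 and at 1.21, 0.82, 1.04 and 1.01 in T3R1. Its arrays were tightly grouped on both slides, and the rise was 1.70 ± 0.24 (adjusted p = 0.000184), with 1.16 above control and 0.88 in the slide-cancelling contrast. Sfrp1, of the same family, rose by 1.64 ± 0.27 (adjusted p = 0.000639) and the receptor Fzd2 by 1.18 ± 0.18 (adjusted p = 0.000427). The receptor Fzd7 rose by 0.88 ± 0.20, and the ligand Wnt4 fell by 0.69. The fifth that rose was the receptor Fzd1 (0.66, adjusted p = 0.0179), named after its value was seen. The number that rose was 4 or 5 with any single T2R1 or T3R1 array left out, and 7 without control replicate 1.

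Type I interferon genes were higher after 3 days, and their count moved little with single arrays. Of 24 members 15 rose (62.5%, against 6.58% of all features) and none fell. The median difference was 0.59, and 14 had all T3R1 arrays above all T2R1 arrays, against 12.4% of all features. Among the 21 members well above background on all 8 arrays 13 rose. Isg15, a ubiquitin-like modifier induced by interferon, was at 2.43, 2.11, 2.29 and 2.40 in T2R1 and at 3.44, 3.23, 3.24 and 3.28 in T3R1, a rise of 0.99 ± 0.17 (adjusted p = 0.000897), from a probe at chr4:155573649-155573708 (mm9). Cxcl10, the chemokine that draws T cells through CXCR3, was at -1.96, -0.78, -1.52 and -0.88 in T2R1 and at 1.56, 0.96, 1.25 and 0.92 in T3R1, a rise of 2.46 ± 0.65 (adjusted p = 0.0129). Both groups were well separated for these genes. Mx1, an antiviral GTPase, was well above background on 3 of the 4 T2R1 arrays and rose by 2.43 ± 0.51 (adjusted p = 0.00314). Ifit1 and Ifit3, which bind foreign RNA or its partners, rose by 1.13 ± 0.22 and 1.05 ± 0.19, and Usp18, which removes Isg15 from proteins and dampens the receptor, by 0.83 ± 0.15.

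Array T3R1 replicate 2 was the lowest of its group for these genes. The median over the interferon list of each gene's deviation from its mean was -0.00 on that array and 0.44 on each of the other T3R1 arrays, while the T2R1 arrays lay between -0.45 and -0.18. With single arrays left out, 12 to 17 members rose. Across the 29 settings run at an adjusted p under 0.05 with no fold minimum, 12 to 22 rose. Within slide 1 and without control replicate 1, 11 members were higher in T3R1 than in control and 1 lower (median 0.44), and in the slide-cancelling contrast 12 were higher (median 0.59). When that array was kept, 1 member was higher than control (median 0.34) and none passed in the slide-cancelling contrast. The median of T2R1 minus T1R1 was -0.25. Genes induced mainly by interferon gamma had a smaller median difference, 0.06 over 15 guanylate-binding and immunity-related GTPases. Among them none rose, against 6.58% of all features, and 1 fell (6.67%, against 20.4% of all features). That gene was Gbp4, which fell by 0.68 against T2R1 (adjusted p = 0.00948) and differed from control by -1.41 (adjusted p = 0.00626). Of 17 genes of antigen presentation none rose and 1, the immunoproteasome subunit Psmb10, fell by 0.24 (5.88% of members, against 20.4% of all features).

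Promoters of interferon members are shown for the element that interferon-activated factors are known to bind, searched on both strands as GAAA, any 2 bases and again GAAA (in reverse TTTC, any 2 bases and TTTC), with overlapping matches counted separately. It was found in 8 of 17 members with a window (47.1%), and in 7 of the 10 such members that rose, against 3.27% of the 12407 tested named genes with a window. The windows of named members that rose follow, printed as above, with the matches in capitals.
Isg15, chr4:156200819-156201068, minus strand: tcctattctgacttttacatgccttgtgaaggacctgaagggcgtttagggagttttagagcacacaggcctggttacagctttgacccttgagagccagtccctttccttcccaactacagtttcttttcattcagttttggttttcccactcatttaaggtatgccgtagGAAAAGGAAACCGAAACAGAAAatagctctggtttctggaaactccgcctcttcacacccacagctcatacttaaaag
Ifit1, chr19:34640639-34640888, plus strand: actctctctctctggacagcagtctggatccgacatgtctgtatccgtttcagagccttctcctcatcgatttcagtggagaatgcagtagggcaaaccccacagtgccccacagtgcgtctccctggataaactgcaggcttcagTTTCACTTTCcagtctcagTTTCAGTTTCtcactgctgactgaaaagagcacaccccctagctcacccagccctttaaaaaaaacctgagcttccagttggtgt
Ifit3, chr19:34583279-34583528, plus strand: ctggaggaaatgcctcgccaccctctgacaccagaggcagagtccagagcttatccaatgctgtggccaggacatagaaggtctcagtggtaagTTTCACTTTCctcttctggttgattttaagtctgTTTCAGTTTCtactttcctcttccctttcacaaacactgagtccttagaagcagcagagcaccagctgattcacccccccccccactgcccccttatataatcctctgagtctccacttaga
Isg15 held 3 overlapping matches in 1 run, and Ifit1 and Ifit3 held 2 each. Rsad2, which did not pass, also held a match, and Irf7, Oasl2 and Ddx58, which rose, held none in this window.

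The macrophage markers that passed were higher with 1 exception. Of 15 markers 7 rose and 1 fell, against 6.58% and 20.4% of all features, and 7 did not pass (median 0.63). T3R1 arrays lay wholly above for 12, against 12.4% of all features. Adgre1, the F4/80 antigen of tissue macrophages, was at 1.23, 1.26, 0.98 and 1.39 in T2R1 and at 2.48, 2.08, 2.40 and 2.29 in T3R1, a rise of 1.10 ± 0.25 (adjusted p = 0.00587). Cx3cr1, the fractalkine receptor of resident macrophages, was at -0.58, -0.44, -0.15 and 0.01 in T2R1 and at 1.92, 0.85, 2.06 and 1.80 in T3R1, a rise of 1.95 ± 0.52 (adjusted p = 0.0127). Every T3R1 array lay above every T2R1 array for both genes, with T3R1 replicate 2 the lowest of its group. Lyz2, lysozyme of myeloid cells, rose by 1.01 ± 0.28, Csf1r, the receptor for the growth factor of macrophages, by 0.41 ± 0.14, and the C1q chains of complement, which cardiac macrophages make, by 0.55 ± 0.19 (C1qa), 0.63 ± 0.22 (C1qb) and 0.63 ± 0.16 (C1qc, which stands in the complement list). Itgam, the integrin CD11b shared with neutrophils, fell by 0.39. With single T2R1 or T3R1 arrays left out 3 to 6 markers rose. The count was 3 without T2R1 replicate 1, 2 or 3 or T3R1 replicate 1 or 4, it was 4 without T3R1 replicate 3, control replicate 4 or with quantile scaling, and it was 11 without control replicate 1. Without that control, 11 markers were higher than control and 9 were higher in the slide-cancelling contrast, with medians of 0.88 and 0.86, while T2R1 minus T1R1 had a median of 0.02. When control replicate 1 was kept, no marker passed against control (median 0.63) or in the slide-cancelling contrast. Adgre1 was at 2.59 on control replicate 1 and between 1.05 and 1.27 on the other controls.

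Of 20 chemokines tested 2 rose and 2 fell, against 6.58% and 20.4% of all features. Besides Cxcl10, Cx3cl1, the membrane-bound ligand of Cx3cr1, rose by 0.66 ± 0.21. Ccl11, eotaxin, fell by 0.87 (adjusted p = 0.00122) and Cxcl12, a stromal retention signal for leukocytes, fell by 0.60.

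Lymphocyte and neutrophil markers lay on the other side. Of 15 tested T and NK cell markers 6 fell (40%, against 20.4% of all features) and none rose (median -0.65). T3R1 arrays lay wholly below for 9, against 25.6% of all features. Of the 11 markers well above background on all 8 arrays 5 fell (median -0.58). The other markers, Cd8a among them, could enter through 1 group alone, so their direction partly follows from the filter. Cd3e, a chain of the T cell receptor complex, was at 1.99, 2.06, 2.26 and 1.96 in T2R1 and at 1.11, 1.05, 0.95 and 1.82 in T3R1. T3R1 replicate 4 lay just under the T2R1 arrays and the other 3 well below, a difference of -0.84 ± 0.19 (adjusted p = 0.00532). Cd8a, the coreceptor of cytotoxic T cells, was well above background on all T2R1 arrays and on none of T3R1, and was at least 2.8-fold lower in T3R1. Cd247 fell by 0.82, the cytotoxic granule genes Prf1 and Nkg7 by 0.58 and 0.51, and Gzma by 0.54. With single T2R1 or T3R1 arrays left out 4 to 6 markers fell, 4 of them without T2R1 replicate 4 or T3R1 replicate 2. The count was 3 with quantile scaling and in the authors' values, and 2 under median scaling. Differences from control, with all controls, were small for Cd3e (-0.20), Cd247 (0.28) and Prf1 (0.15). On those same arrays the list's median of T3R1 minus control was -0.50, and no member passed. Without control replicate 1 the list's median was -0.21 with 1 member lower.

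Of 11 neutrophil markers 4 fell (36.4%, against 20.4% of all features) and none rose (median -0.72), while 2 had T3R1 arrays wholly below, against 25.6% of all features. Of the 9 well above background on all 8 arrays 4 fell. Retnlg, a secreted protein of mature neutrophils, was at 0.35, 1.57, -1.40 and -1.40 in T2R1 and at -3.86, -1.21, -2.62 and -2.81 in T3R1, so that 1 T3R1 array overlapped, and fell by 2.41 (adjusted p = 0.0412). Ly6g, the surface marker of mouse neutrophils, was at -0.25, -0.02, -0.12 and -0.05 in T2R1 and at -0.59, -0.56, -0.95 and -0.65 in T3R1 and fell by 0.57 (adjusted p = 0.00236). S100a8, a calprotectin chain, differed by -2.15 ± 0.82 and did not pass (adjusted p = 0.064), and the granule protein Lcn2 by 0.19 ± 0.71 (adjusted p = 0.873). Elane and Stfa2 fell by 0.72 and 0.88. The count was 2 without T3R1 replicate 1 and 6 without T3R1 replicate 2, and under median scaling none passed and under quantile scaling 2 fell. Ly6g and Stfa2 lay within 0.13 of control in T3R1. The list's median against control was 0.26 with all controls and 0.53 without control replicate 1.

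Genes of energy metabolism were lower in T3R1 by small and even amounts, most of them short of the threshold. All 36 subunits of respiratory complex I had lower means in T3R1, by -0.43 to -0.12, with a median of -0.31, but only Ndufb2, an accessory subunit, passed (-0.43 ± 0.14, adjusted p = 0.0366). Of 37 subunits of complexes II to V all 37 had lower means (median -0.33) and 1 passed, the ATP synthase chain Atp5c1 (-0.61 ± 0.19). Of the subunits of complex I, 23 had all T3R1 arrays below all T2R1 arrays, and of the other complexes 27, against 25.6% of all features. Among 30 genes of fatty acid oxidation 4 fell (13.3%, below the 20.4% of all features that fell), with a median of -0.39, and 18 had T3R1 arrays wholly below. Decr1, the reductase that handles unsaturated fatty acids, was at 7.50, 7.23, 7.40 and 7.23 in T2R1 and at 6.71, 6.99, 6.76 and 6.91 in T3R1. The groups were apart by a narrow margin, and Decr1 fell by 0.50 (adjusted p = 0.0239). Hadha, the long-chain chain of the trifunctional protein, fell by 0.61, Etfdh, which passes electrons to the respiratory chain, by 0.44, and Acot2, a mitochondrial thioesterase, by 0.71 (adjusted p = 0.007). Hadha passed in 13 and Etfdh in 8 of the 28 alternative settings scored.

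These counts depended strongly on control replicate 1 and on the scaling. Without control replicate 1, 23 subunits of complex I, 29 of complexes II to V and 20 genes of fatty acid oxidation fell, and from the 8 arrays alone 22, 24 and 18. With single T2R1 or T3R1 arrays left out, 0 subunits of complex I fell without any T2R1 array or T3R1 replicate 1 or 4, and 0 of complexes II to V without T2R1 replicate 1, 3 or 4 or T3R1 replicate 1 or 3. In fatty acid oxidation 1 gene fell without T2R1 replicate 1 or 3 or T3R1 replicate 1 or 3, and 2 fell without T2R1 replicate 2 or 4, T3R1 replicate 2, control replicate 4 or T1R1 replicate 4. Under median scaling the list medians became 0.04, 0.03 and -0.03 and no member passed. Within slide 1 and without control replicate 1, 36 of 36, 35 of 37 and 27 of 30 members were lower than control, and in the slide-cancelling contrast 36, 35 and 22. When that array was kept, no member of these lists passed against control (medians -0.36, -0.34 and -0.47) or in the slide-cancelling contrast. On control replicate 1 Decr1 was at 6.88 and on the other controls at 7.55 to 7.62. Control replicate 1 thus lay inside the T3R1 range for this gene.

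Ventricular cardiomyocyte markers had a like shift: none of 15 passed, and the median was -0.26, or 0.10 under median scaling. Mb, myoglobin, was at 10.10, 9.99, 10.09 and 9.96 in T2R1 and at 9.42, 9.60, 9.46 and 9.77 in T3R1, a difference of -0.47 ± 0.20 (adjusted p = 0.0979). The cardiac troponin gene Tnni3 differed by -0.45 ± 0.21 (adjusted p = 0.132). Without control replicate 1, 5 markers fell. None of 15 fetal and hypertrophy genes passed (median 0.00). The natriuretic peptide gene Nppa was at 9.65 to 10.23 in T2R1 and at 9.86 to 10.11 in T3R1 (0.00 ± 0.16), Nppb differed by -0.77 ± 0.49 and the slow myosin heavy chain Myh7 by -0.92 ± 0.60 with wholly lower T3R1 arrays (adjusted p = 0.278). Of 18 endothelial markers 3 fell (16.7%, against 20.4% of all features) and none rose (median -0.13, or 0.23 under median scaling). They were Rgcc, which fell by 0.92, Ly6c1 by 0.36 and Robo4 by 0.37, and the count was 1 without T2R1 replicate 2 or 3 or T3R1 replicate 1 or 2.

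Of 24 genes of cholesterol synthesis and uptake 7 rose and 1 fell, against 6.58% and 20.4% of all features (median 0.44). T3R1 arrays lay wholly above for 15, against 12.4% of all features. Fdps, which makes farnesyl diphosphate, was at 2.78, 2.92, 2.78 and 2.83 in T2R1 and at 3.24, 3.42, 3.35 and 3.36 in T3R1, a rise of 0.51 ± 0.14 (adjusted p = 0.0166). Dhcr7 and Cyp51, later enzymes of the pathway, rose by 0.59 ± 0.16 and 0.55 ± 0.16, Stard4, a sterol carrier, by 0.42 ± 0.12, and Insig1, the sterol-regulated brake of the pathway, by 0.96 ± 0.29. The differences of Fdps, Stard4 and Insig1 from control were 0.13, 0.24 and -0.13, and in the slide-cancelling contrast without control replicate 1 only 1 of the 24 was higher. The count of members that rose was 2 without T2R1 replicate 3, 3 without T2R1 replicate 4, 4 without T2R1 replicate 1 or T3R1 replicate 2 or 3, and 13 without control replicate 1.

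**Figure D2:**
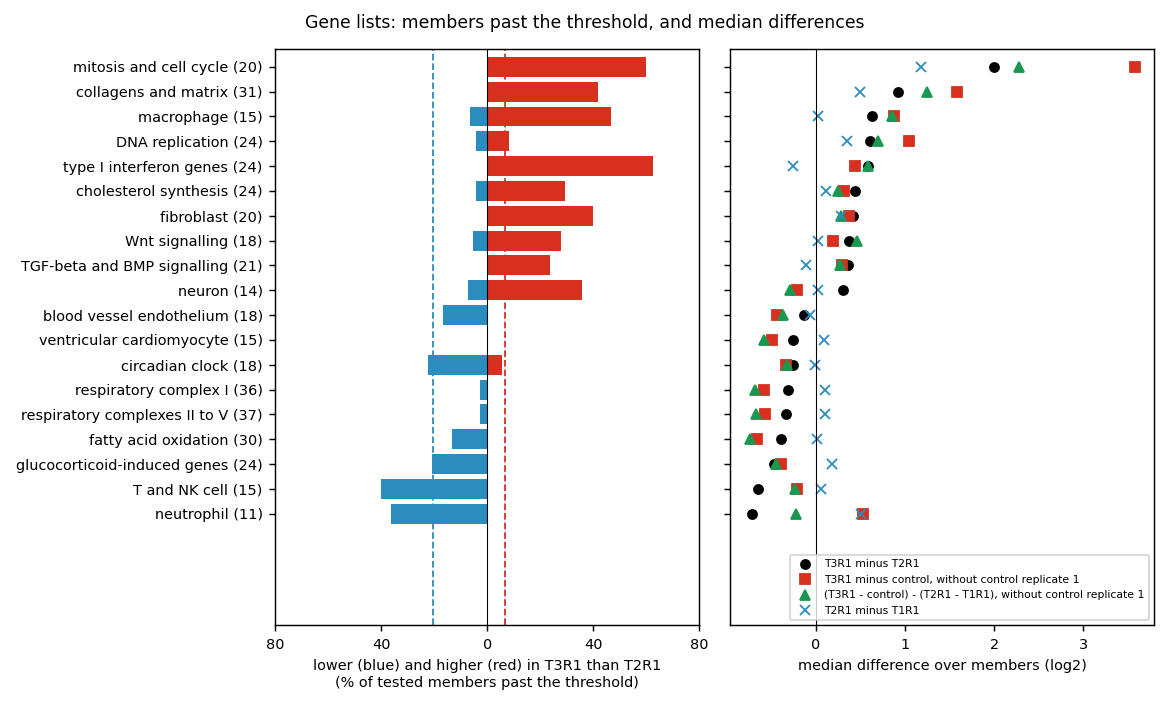
Left, the percentage of tested members of 19 gene lists that were lower (blue) or higher (red) in T3R1 than in T2R1 at an adjusted p under 0.05, with dashed lines at the shares of all features (20.4% lower, 6.58% higher) and the number tested in brackets. Right, the median log2 difference of each list for T3R1 minus T2R1, T3R1 minus control and the slide-cancelling contrast, both without control replicate 1, and T2R1 minus T1R1; the mitosis list has the highest medians of T3R1 minus T2R1, and the neutrophil list has medians on both sides of 0.

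Some genes that differed between T3R1 and T2R1 lay near the control level in T3R1, and others of the same lists did not. The control level here includes control replicate 1. The clock gene Dbp, an output factor of the circadian oscillator, was at 6.39, 6.18, 6.31 and 5.93 in T2R1 and at 4.94, 5.36, 5.26 and 4.93 in T3R1. It fell by 1.08 (adjusted p = 0.000353) and differed from control by 0.08. Arntl, a core activator of the clock that peaks opposite to Dbp, was at -2.15, -2.30, -2.58 and -2.56 in T2R1 and at -1.10, -1.18, -1.42 and -0.64 in T3R1, a rise of 1.31 ± 0.27 (adjusted p = 0.00258) with -0.33 against control. T1R1 lay on the side of T2R1 for both genes, at means of 5.89 and -1.92. Ciart, a repressor of the clock, fell by 1.61 (adjusted p = 0.00784) and Per1 by 0.83 (adjusted p = 0.0122), with Per1 at -0.06 and Ciart at 1.10 against control. Tef, a factor related to Dbp, fell by 0.37 and lay at -0.34 against control. Nr1d1 differed by -0.49 ± 0.30 and Cry1 by -0.10 ± 0.15, and neither passed, but Cry1 was lower than control, by -0.79 (adjusted p = 0.0347). In all, 1 of 18 clock genes rose and 4 fell, against 6.58% and 20.4% of all features (median -0.26, or 0.10 under median scaling). Without control replicate 1, 1 clock gene was higher and 7 were lower than control, and with all controls 1 was lower. The labels do not state the hour at which hearts were taken, and they say that the stress was given at varying times of day.

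Of 24 targets of glucocorticoids, the adrenal stress hormones, 5 fell and none rose (median -0.47). That share of 20.8% was near the 20.4% of all features that were lower, and 4 members had T3R1 arrays wholly below, against 25.6% of all features. These were Per1, Tat, a liver enzyme (-1.47 ± 0.24), Sgk1, a salt-regulating kinase (-0.82 ± 0.19), the metallothionein Mt1 (-0.57 ± 0.19) and Fam107a (-0.51 ± 0.17). Fkbp5, the chaperone often used as a readout of the receptor, was at 1.26 to 1.70 in T2R1 and at 1.46 to 2.10 in T3R1 (0.17 ± 0.15, adjusted p = 0.413). Against control Sgk1 differed by -0.54 and Mt1 by 0.20. The count was 3 without any of T2R1 replicates 1, 2 or 3 or T3R1 replicates 1, 3 or 4, and under median scaling 2 rose and 1 fell. Among 23 immediate early genes, which respond within minutes to stimulation, 4 fell (17.4%, against 20.4% of all features) and none rose: Klf2 by 0.71, Fosb by 0.75, Klf4 by 0.72 and Jun by 0.64.

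Neuronal markers, which in a heart sample stand for cardiac ganglia and nerve fibres, moved in both directions. Of 14 tested 5 rose and 1 fell, against 6.58% and 20.4% of all features (median 0.31). Nefl, neurofilament light chain, was above background on no T2R1 array and on all 4 T3R1 arrays, at least 3.6-fold higher (adjusted p = 0.00115), and differed from control by -0.11. Prph, peripherin, rose by 2.08 ± 0.53 and stood at 0.05 against control, and Gap43, of growing axons, rose by 1.79 ± 0.46. Neither Prph nor Gap43 was well above background on all 8 arrays. For Gap43, T2R1 replicate 3 was at -6.08 and the other T2R1 arrays lay between -4.02 and -3.68. Tubb3, the tubulin of neurons, named after its value was seen, was higher by 1.59 (adjusted p = 0.0453). Uchl1, a neuronal deubiquitinase, behaved otherwise: it was at -0.10, 0.20, -0.10 and -0.16 in T2R1 and at 1.12, 1.08, 1.06 and 1.07 in T3R1, a rise of 1.13 ± 0.22, and T3R1 exceeded control by 1.05. Snap25, of synaptic vesicles, fell by 0.43. Of the 9 members well above background on all 8 arrays 2 rose and 1 fell, with a list median of -0.22. Cyp1a1, the xenobiotic enzyme induced through the aryl hydrocarbon receptor, was at least 3.67-fold higher in T3R1 than in T2R1 and differed from control by -1.11, and Cyp1b1, a second target of that receptor, rose by 0.76 ± 0.17 and lay at -0.08 against control.

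**Figure D3:**
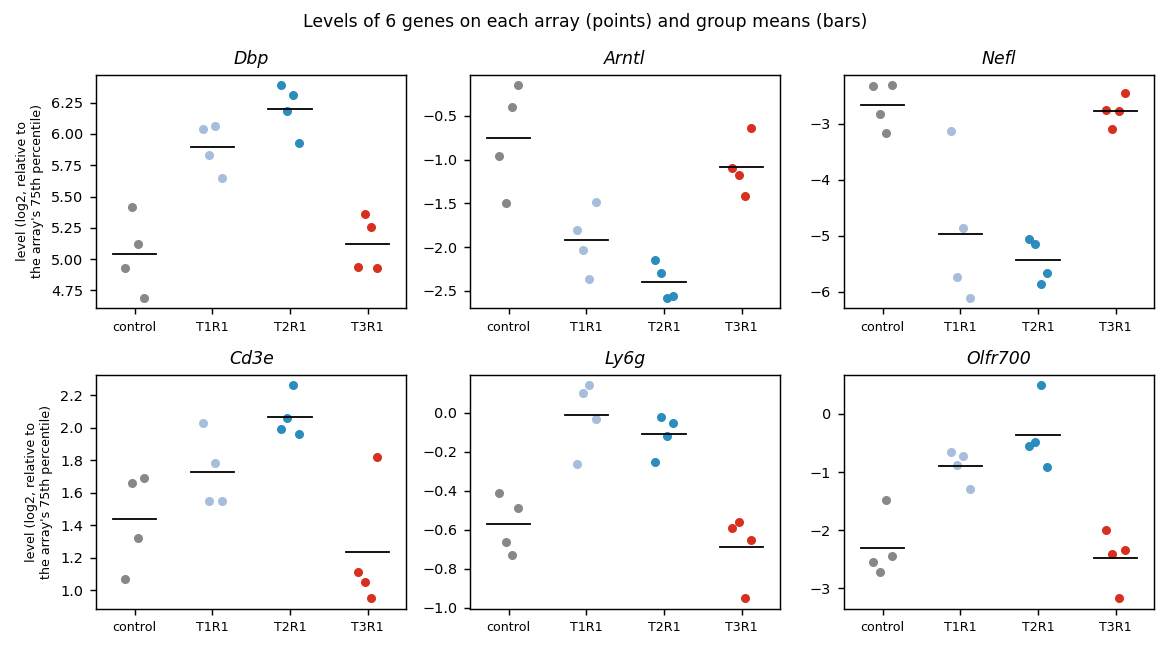
Levels of 6 genes (log2, relative to the array's 75th percentile) on each array, shown as points, with group means as bars, in control, T1R1, T2R1 and T3R1 (4 arrays each). T3R1 points lie apart from T2R1 points in each panel and within or near the span of the control points, which share slide 1 with T3R1, while T1R1 and T2R1 share slide 2.

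Among the remaining genes with the highest differences, Sprr1a, a cornified envelope protein that stressed cardiomyocytes and injured neurons induce, was at -1.31, 1.89, -0.42 and 0.47 in T2R1 and at 4.53, 3.37, 4.69 and 3.98 in T3R1. The T2R1 arrays spread widely, the T3R1 arrays lay above them all, and the rise was 3.98 ± 1.37 (adjusted p = 0.0444, 15.8-fold). Serpinb1a, an inhibitor of neutrophil proteases, rose by 2.05 ± 0.54 and Serinc2, a membrane protein of serine-containing lipids, by 2.05 ± 0.62. Of the genes named for the 12 highest and 12 lowest differences, 6 further probes were measured: 5 had the same direction, 4 of these passed and that of Alox12b did not, while the second probe of Tpx2 did not have the same direction. The valve and cartilage-like list was split, with Omd (1.08 ± 0.24), Comp (0.94 ± 0.18) and Ucma (1.70 ± 0.53) higher and Chad and Col9a1 lower, by 0.64 and 0.83, of 9 tested. Over all features 6.58% were higher and 20.4% lower. Imprinted growth genes rose in 4 of 14 cases (28.6%, against 6.58% of all features): Mest (0.91 ± 0.16), Plagl1 (0.76 ± 0.12), Meg3 (0.74 ± 0.18) and Ndn (0.45 ± 0.13), of which Plagl1 lay only 0.14 above control. In insulin and growth factor signalling Igf1 rose by 0.76 ± 0.25 and Igfbp3, a carrier of it, by 0.81 ± 0.10, while the receptor substrate Irs2 fell by 0.95; Igfbp3 lay at 0.03 against control and Irs2 at -1.09.

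The lowest differences were held by genes of skin, liver and sensory tissues and by noncoding regions, mostly dim. Olfr700, an odorant receptor gene, was at -0.56, -0.48, 0.49 and -0.92 in T2R1 and at -1.99, -2.41, -3.17 and -2.35 in T3R1, which did not overlap. It fell by 2.11 (adjusted p = 0.000438) and differed from control by -0.18. Skint5, of the skin T cell selection family, fell by 2.03 (adjusted p = 4.5e-05), and Alox12b, a lipoxygenase of the skin barrier, by 2.11 (adjusted p = 0.00491). Bpifb6, of the family of lipid-binding airway proteins, fell by 2.36 (adjusted p = 0.0158), with T2R1 replicate 1 at 1.46 and the other T2R1 arrays between -2.66 and -1.99. Csn1s2b, a casein gene, was at least 4.1-fold lower in T3R1, and Gpr31b, Olfr822, Nup62cl and Cyp2w1 were at least 3.96-fold, 3.59-fold, 3.35-fold and 3.18-fold lower, all above background on every T2R1 array and on no T3R1 array. Crhbp, the binding protein of corticotropin-releasing hormone, fell by 2.08 (adjusted p = 0.000354) and lay at -0.50 against control.

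The class of 252 tested odorant, vomeronasal and trace amine receptor genes held 188 lower members (74.6%, against 20.4% of all features) and none higher. Its median was -1.13 for T3R1 minus T2R1, -0.17 for T3R1 minus control and 0.24 for T2R1 minus T1R1. Of 3046 long noncoding RNA regions 1605 were lower and 37 higher (median -0.66, and -0.12 against control), while of 16422 named genes 2247 were lower and 1359 higher (median -0.03). The share of lower calls fell with brightness: in 5 classes of equal size by mean signal, from dimmest to brightest, it was 36.8%, 34.5%, 18.2%, 7.82% and 4.75%, and the share of higher calls was 4.22%, 5.86%, 9.79%, 8.31% and 4.75%. Dimness, slide and exposure move together in this comparison, and their part in the low calls was not tested beyond these values. A dim feature could also enter the tests through the arrays of 1 group alone, such as T2R1. Its direction then partly follows from that filter. Of 20054 features well above background on all 8 arrays, 3651 were lower and 1362 higher. With no filter on dim probes 4712 of 34667 were lower and 1022 higher. These counts were not split by class or brightness. Regions of noncoding RNA that rose included one at chr9:14460976-14488051 (mm9, marked F, forward, in its name), at -1.60, -0.13, -0.93 and -0.78 in T2R1 and at 1.06, 0.90, 1.29 and 0.79 in T3R1, a rise of 1.87 ± 0.63 (adjusted p = 0.0393). The overlapping regions chr17:95150800-95180650 and chr17:95149413-95174473, also forward, rose by 1.91 ± 0.63 and 1.61 ± 0.51. The chr9 region passed in 19 of the 28 alternative settings scored, and the chr17 regions in 20 and 21. The lowest regions named by the same rule, chr8:18592437-18593034, chr2:67407510-67407845 and chr14:43408099-43415349, passed as lower in all 28.

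**Figure D4:**
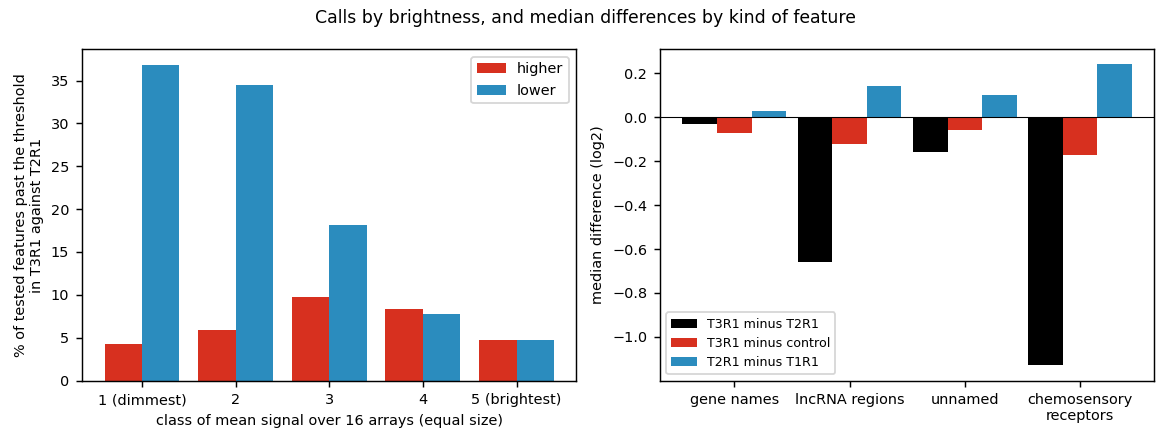
Left, the percentage of tested features that were higher (red) or lower (blue) in T3R1 than in T2R1 in each of 5 classes of equal size by mean signal over 16 arrays. Right, median log2 differences of T3R1 minus T2R1, T3R1 minus control and T2R1 minus T1R1 for named genes, long noncoding RNA regions, unnamed transcripts and chemosensory receptor genes; lower calls fall from 36.8% to 4.75% with brightness, and the chemosensory median is -1.13 across slides and -0.17 against control.

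Markers of other cell types and tissues that a whole heart sample could hold were called in some lists and not in others. The shares of all features to set beside these counts were 6.58% higher and 20.4% lower. None of 17 adipocyte markers passed (median 0.49), and Ucp1, the heat-producing protein of brown fat, ranged from -2.01 to 3.91 in T2R1 and from 2.24 to 5.07 in T3R1. None of 8 B cell, 11 platelet, 8 erythroid, 5 lymphatic or 12 atrial markers passed, with medians of -0.46, -0.69, 0.03, -0.24 (0.11 under median scaling) and 0.07. Of 12 Schwann cell markers 1 rose, the adhesion molecule Ncam1 by 1.18 ± 0.18 (adjusted p = 0.000392). Of 14 epicardial markers 2 rose, Krt18 by 1.43 ± 0.39 and the transcription factor Tbx18 by 0.63 ± 0.19, while Wt1 differed by -0.31 ± 0.23. Of 6 skeletal muscle markers above background Tnnc2 and Pvalb fell, by 1.01 (with T3R1 replicate 3 missing) and 0.55. Of 10 liver markers Tat and Fga, a fibrinogen chain, fell, by 1.47 and 0.73 (20%, against 20.4% of all features). Of 6 mast cell markers the receptor Kit rose by 0.56. Of 3 tested thyroid and parathyroid markers Duox2 and Gcm2 were lower, by -1.61 and -1.03, and none of 3 lung or 3 thymus markers passed. Of housekeeping systems, 2 of 45 ribosomal proteins fell, and 0 of 35 mitochondrial ribosomal proteins and 0 of 31 proteasome subunits passed. Their medians were -0.04, -0.14 and -0.03 in the chosen scaling and 0.32, 0.21 and 0.33 under median scaling, where the sign turned.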

How the data were processed

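Each heart was measured on 1 single-colour Agilent array. The processed intensity was background-subtracted and detrended within each array by Feature Extraction 10.7.3.1, with no scaling between arrays, and the flags for background and outliers are the scanner software's, per the file headers. A log2 value table the authors deposited, quantile-like across arrays, served as an alternative. Processed intensity was turned into log2, and each array's 75th percentile was subtracted. Outlier spots were left out, spots of a probe averaged, and the probe with the highest mean kept per gene name. Differences came from limma 3.58.1 (R 4.3.3), 4 groups over 16 arrays, tested on simulated data; probe positions are of mm9. Named genes were the 12 highest and 12 lowest differences with separate groups above background on all 8 arrays, up to 5 members of each list by p, the 5 largest bounds each way, 3 noncoding regions each way, and a fixed set. The members and the 58 gene lists were chosen with earlier results of these data known. A list's excess over the share of all features is therefore a description and no independent support. Alternatives covered background, scaling, filter, samples, prior, weights, block, threshold and single arrays. The result of 1 list member is not reported here.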

Additional observations from a re-analysis of the deposited data

Results flagged for a closer look

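Of 351 sets of 4 arrays examined (named genes in T2R1 and T3R1, and list medians per array), 22 held an array far from the other 3 by Dixon's criterion, where chance gives about 1 in 20. On the array labelled control replicate 1 the median deviation of a list's members from their means was 1.28 for mitosis (other controls -2.91 to -2.41), 0.18 for collagens and matrix (-1.31 to -1.17), 0.70 for DNA replication (-0.83 to -0.59), 0.35 for transforming growth factor beta signalling (-0.15 to -0.12), -0.44 for respiratory complex I (0.39 to 0.51), -0.30 for fatty acid oxidation (0.43 to 0.51) and -0.62 for ventricular cardiomyocyte markers (0.26 to 0.37). On T3R1 replicate 2 that value was -0.00 for the type I interferon list, against 0.44 on each other T3R1 array, and the levels were 1.40 for Ifit3 (others 2.01 to 2.13) and -0.40 for Usp18 (0.11 to 0.20), with 0.32 for Pola1 (0.08 to 0.11) and -1.95 for Stfa2 (-2.71 to -2.59). T2R1 replicate 1 stood high for Bpifb6 at 1.46 (others -2.66 to -1.99), for the noncoding region lncRNA_chr2:67407510-67407845_R at 0.30 (-2.20 to -1.96) and for Acot2 at 1.41 (1.15 to 1.19). T2R1 replicate 2 stood at 0.20 for Uchl1 (others -0.16 to -0.10), T2R1 replicate 3 at -6.08 for Gap43 (-4.02 to -3.68) and T2R1 replicate 4 at 3.67 for Rgcc (4.63 to 4.71). T3R1 replicate 1 stood at 3.75 for Bgn (others 3.46 to 3.48) and at -6.64 for Gpr31b (-5.61 to -5.44), and T3R1 replicate 3 at -1.49 for Parpbp (-3.48 to -3.34) and at -3.78 for the same noncoding region (-3.46 to -3.43).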

How the results depend on the processing

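Exposure and slide cannot be told apart, 4 arrays per group limit precision, and dim probes are least certain. The count of features that differed between T3R1 and T2R1 was 6107; it became 9211 with array weights, 3255 at an adjusted p under 0.01 and 2234 with a 2-fold minimum, and 4193 to 8305 with single arrays left out. For T3R1 against control (157) it became 300 with normexp, 21 with median scaling, 355 in the authors' values, 17 with no filter, 281 with probes above background on all 8 arrays, 480 with an intensity trend, 7777 with array weights, 8 at an adjusted p under 0.01, 55 with a 2-fold minimum, and 5775 with quantile scaling and control replicate 1 left out, and 3 to 6667 with single arrays left out. T2R1 against T1R1 gave 0 throughout the single-array settings. The slide-cancelling contrast (0) gave 4139 with array weights, 2238 with quantile scaling without control replicate 1, and 0 to 4238 with single arrays left out (1 without T1R1 replicate 3). Of 977 tested genes in the lists, 161 passed, a smaller share than the 27.0% of all features. The count was 262 with median scaling, 343 on the 8 arrays alone and 368 with array weights. It was 354 on 7 arrays without T3R1 replicate 4, 280 with quantile scaling without control replicate 1, and 95 to 329 with single arrays left out. The replicate block gave 5942 features for T3R1 against T2R1 and 42 for T3R1 against control; same-numbered arrays deviated together with correlations of 0.107, 0.0408, 0.0159 and -0.0558, so the numbers did not pair them. Of 115 named genes that passed, 115 kept their direction and 58 passed in every setting in which they were scored. Single genes were not scored at an adjusted p under 0.01, with a 2-fold minimum, or with quantile scaling without control replicate 1. Genes with no probe well above background on all 8 arrays were not scored under that filter. The sign of 6 genes that did not pass turned: Cry1 (0.23 quantile, 0.25 median scaling, 0.11 authors' values), Hba-a1 (0.07, 0.10, 0.10), Myl3 (0.01 quantile, 0.00 median scaling), Esam (0.14 median scaling), Lcn2 (-0.11 to 0.39 with single arrays left out, the lowest without T3R1 replicate 2) and Nppa (-0.10 to 0.09 with single arrays left out, -0.00 with array weights, -0.01 and -0.10 without T2R1 replicates 2 and 4, -0.04 without T3R1 replicate 4 and on those 7 arrays). The cause of these changes was not tested. The 7-array setting and the quantile setting without control replicate 1 were chosen after seeing the data.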
